A study of Rattus norvegicus with 4 samples.

Results

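BMP and activin antagonists are proteins that keep bone morphogenetic proteins (BMPs) or activins from signalling, most of them by binding the ligand outside the cell. 9 such genes were looked up by symbol in a gene table of rat articular cartilage: Grem1, Nog, Chrd, Chrdl1, Chrdl2, Fst, Fstl1, Fstl3 and Bambi. 8 of the 9 had a row among the 31007 gene rows. Fstl3 was listed at 0 in every library and is not measured here, and no row carried the symbol Chrdl2. A row described as chordin-like 2 under the symbol LOC100360934 was also listed at 0 in every library. The other 7 genes are described below.

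The cartilage came from the upper end of the tibia of 2 Sprague-Dawley rats, 10 weeks old, with no treatment named in the labels. Laser microdissection of frozen sections gave, from each rat, the superficial zone (SFZ) that faces the joint and the cartilage beneath it (deep AC), which makes 4 libraries in all, 2 for each zone, and lets each rat give its own difference between zones. Captured RNA was amplified before sequencing. How the captured areas were bordered, and whether each library holds cells from 1 joint or more, is not stated in the labels.

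BMPs bind type I and type II receptor kinases, which phosphorylate SMAD proteins that then act on target genes in the nucleus. Activins use a parallel set of receptors and SMADs. Gremlin, noggin, chordin and the chordin-like proteins are secreted and bind BMPs. Follistatin and follistatin-like 3 bind activins most strongly, and BAMBI is a membrane protein built like a type I receptor without the kinase. In growing cartilage, BMP signalling drives chondrocytes towards hypertrophy, the enlarged state that comes before mineralization, and in the mouse noggin is needed for joints to form. In human articular cartilage gremlin 1 is known as a brake on hypertrophy.

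The deposited values are log2 values less each row's median over the 4 libraries, so they keep differences between libraries and not levels. Each difference below is the SFZ value less the deep AC value of that rat, as log2. Reads are given where the values fix them, either because a library sat at the floor, which is 1 scaled read, or because only whole reads in all 4 libraries matched the differences. For SFZ libraries the floor means 0 reads; for deep AC libraries it means at most 1 read. The 8724 genes whose mean reached 10 scaled reads were tested with limma, with zone and rat as terms. Of the 7 antagonist genes above 0, 6 reached that level, and Chrdl1 did not. A ± gives the SD over the 2 rats.

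None of the 6 tested antagonist genes passed an adjusted p of 0.05 (limma, Benjamini-Hochberg over all 8724 genes). That threshold was passed by 0.0344% of all tested genes, 3 in number. At an unadjusted p under 0.05, 2 of the 6 passed, Grem1 and Nog, against 9.72% of all tested genes. Those 2 were also at least 2-fold lower in SFZ in both rats, as were 11.9% of all tested genes. 0 of the 6 were at least 2-fold higher in both rats, against 6.44% of all. With quantile normalization 2 of the 6, Bambi and Fst, were at least 2-fold higher in both rats. Fst had at most 1 read in either zone of rat 2, where the deposited difference was 0.0012. With that normalization the background counts were 713 lower and 952 higher, in place of 1042 and 562. The median difference over tested genes was then 0.033 (rat 1) and 0.059 (rat 2), in place of -0.12 and 0.00. The median of the 6 mean differences was 0.20, beside -0.11 for all tested genes. In an exact permutation test of 1 gene, 2 libraries against 2 cannot give a two-sided p under 0.333. With the zones paired, an exact test of 2 within-rat differences cannot give a two-sided p under 0.5.

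Before the antagonists, the labels were checked against zone markers. The lists were chosen with earlier results of these data known. All 5 tested markers of superficial zone chondrocytes, Prg4, Clu, Cilp, Cilp2 and Thbs4, were higher in SFZ in both rats, with Creb5 at 0. 10 of 10 tested hyaline cartilage markers, among them Col2a1 and Acan, were lower in both, with Col9a3 at 0. Of all tested genes 54.2% had the same sign in both rats, in either direction. Of 8 tested markers of hypertrophic and calcified cartilage 6 were at least 2-fold lower in SFZ in both rats, with medians of -5.29 and -6.48. The reads of the 3 of them with known reads, Ihh, Mmp13 and Phospho1, summed to 0 in both SFZ libraries and to 541 and 839 in deep AC. Ihh had 81 of these, in deep AC of rat 2, and none above the floor elsewhere. Enpp1 went the other way, at 0.22 and 0.46. Panx3 was listed at 0. Of 7 tested osteoblast and osteocyte markers 4, Alpl, Ibsp, Dmp1 and Mepe, were at least 2-fold lower in both rats and 1, Col1a1, at least 2-fold higher. Alpl and Ibsp are also in the hypertrophic list. Known reads summed to between 64 and 1400 in SFZ and between 133 and 753 in deep AC, with Sp7 at 0. Col1a1 gave 1113 of the 1400 in SFZ rat 1. Of 8 tested markers of synovial and tendon fibroblasts 2, Thbs4 and Col15a1, were at least 2-fold higher in SFZ in both rats. Another 2, Dpt and Scx, were at least 2-fold lower. The sums of known reads, which leave out Thbs4 and Col15a1, overlapped (1914 to 3339 in SFZ, 2005 to 3243 in deep AC). Thy1 was at 0. Of 7 tested macrophage and leukocyte markers Lyz2 alone had higher values in SFZ of each rat (3.53 and 0.43), and 2 had lower values in each, Ptprc (-2.03 and -1.02) and Mrc1 (-1.63 and -0.15). The 8 with known reads summed to 1541 to 2729 in SFZ and 905 to 1102 in deep AC, most of them reads of Lyz2 and Cd14. Of the skeletal muscle markers 3 were tested. Tnni2 was lower in SFZ (-9.66 and -10.47; limma adjusted p = 0.0147), one of the 3 genes that passed in the whole table, while Ckm stood at 0.00 and 6.59 and Myh2 at -4.78 and 5.76. The reads of Tnni2 are not known, the 5 muscle markers with known reads summed to 3 to 150 in SFZ and 0 to 79 in deep AC, and Acta1 and 4 others were at 0. Pecam1, the 1 tested endothelial marker, stood at -0.94 and 0.16, with Cdh5, Emcn and Vwf at 0. Blood and marrow markers with known reads, nearly all of them reads of Hba-a2, summed to 329 to 1592 in SFZ and 252 to 354 in deep AC, with Hbb, Mpo and Elane at 0. The differences in the hypertrophic list and in Tnni2 lie beside every difference between the zones given below, and their part in them was not tested. In tissue of this kind fewer cells of a type and less RNA per cell cannot be told apart.

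**Figure D1:**
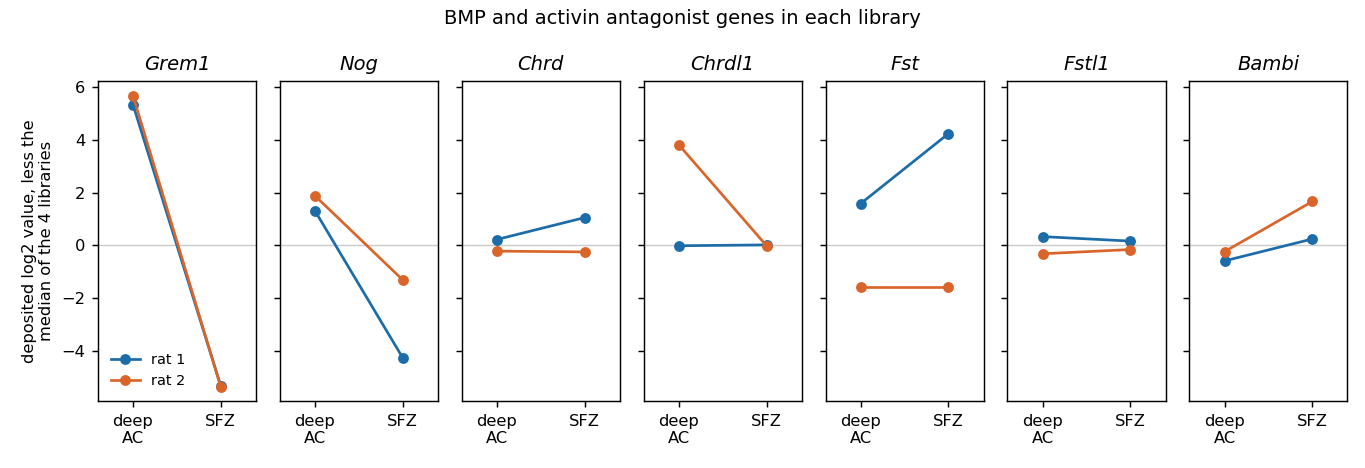
Deposited log2 value of each antagonist gene above 0, less the median of its row, in deep AC and SFZ (x axis), with a line joining both zones of a rat. Grem1 and Nog are low in both SFZ libraries, Bambi is higher in SFZ in both rats, Fst and Chrd differ between the zones in rat 1 alone, Fstl1 is level, and Chrdl1 stands out only in deep AC of rat 2.

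Grem1, which encodes gremlin 1 (Entrez 50566, rn4 chromosome 3, 99597201 to 99608935, minus strand), and Nog, which encodes noggin (Entrez 25495, chromosome 10, 77689244 to 77690871, minus strand), were the antagonists with the lowest values in SFZ. Bambi (Entrez 83837, chromosome 17, 62654385 to 62658641, minus strand) was the one whose SFZ libraries both lay above both deep AC libraries. The 250 bases before the annotated start of these genes are printed because their zones did not overlap. They come from RefSeq on GRCr8, a later build than the table's rn4: chr3:120978320-120978569, chr10:74627502-74627751 and chr17:58821004-58821253, all minus strand, written 5′ to 3′. Capitals mark GGCGCC, a palindrome known as a GC-rich binding motif of BMP-activated SMADs.
Grem1: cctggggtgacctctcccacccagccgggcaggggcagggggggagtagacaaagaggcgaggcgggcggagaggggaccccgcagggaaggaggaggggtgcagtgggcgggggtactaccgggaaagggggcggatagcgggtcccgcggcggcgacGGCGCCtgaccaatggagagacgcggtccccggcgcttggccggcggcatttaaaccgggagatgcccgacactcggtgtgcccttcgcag
Nog: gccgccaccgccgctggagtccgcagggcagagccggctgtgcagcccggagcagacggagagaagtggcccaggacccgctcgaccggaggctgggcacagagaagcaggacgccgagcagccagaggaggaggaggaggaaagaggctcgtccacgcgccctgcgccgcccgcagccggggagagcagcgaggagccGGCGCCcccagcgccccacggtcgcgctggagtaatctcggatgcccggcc
Bambi: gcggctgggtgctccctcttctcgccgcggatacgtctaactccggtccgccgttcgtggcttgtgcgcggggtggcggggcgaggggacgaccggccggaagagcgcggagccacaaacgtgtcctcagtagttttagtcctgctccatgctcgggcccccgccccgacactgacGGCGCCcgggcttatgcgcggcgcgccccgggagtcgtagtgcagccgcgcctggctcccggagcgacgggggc

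Each of these windows held GGCGCC once, with its first base 91 bases before the start in Grem1, 51 in Nog and 74 in Bambi. Among all 33469 promoter windows of the same length 8.69% held it. RefSeq windows were found for 7 of the 9 antagonist genes, all but Fst and Chrdl2, and 4 of the 7 held the motif, the fourth being Chrd, where it began 203 bases before the start. The windows of Grem1, Nog and Bambi were 72.0%, 74.0% and 72.4% G or C, against a median of 51.2% over all windows; 94.0%, 95.8% and 94.3% of all windows had a lower share. CCAAT was found on either strand in Grem1 alone of the 7 (34.0% of all windows), and TATAAA in Fstl3 alone (12.9%). The motif is itself all G and C, and its share among windows as rich in them was not counted. It was thus present in antagonist genes that were lower in SFZ, in one that was higher and in Chrd, whose zones overlapped.

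Grem1 was nearly absent from SFZ. The libraries held 1 read in SFZ rat 1 and 0 in SFZ rat 2, against 1662 and 2265 in the deep AC libraries of those rats. The zones therefore did not overlap, and the spread within a zone was small beside the distance between them. The deposited values were -5.33 and -5.36 in SFZ and 5.33 and 5.67 in deep AC, so the within-rat differences were -10.66 and -11.03. In rat 1 the scaled ratio of deep AC to SFZ was 1620, with an exact 95% interval of 290 to 64000 that covers counting error only. In rat 2, taking 3 reads as the most that a count of 0 allows, Grem1 was at least 696-fold lower in SFZ. Its mean difference of -10.85 ± 0.26 (n = 2 rats, SE 1.49) was lower than that of all but 1 of the 8724 tested genes, yet it did not pass (limma adjusted p = 0.185). It passed with quantile normalization (limma adjusted p = 0.000381), a setting in which 219 of all tested genes passed, in place of 3. Without deep AC replicate 2, in a fit with no rat term, the difference was -10.68. Over all alternatives the adjusted p of Grem1 ran up to 0.317.

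The genes whose 4 deposited values lay nearest to those of Grem1, by Euclidean distance over the 4 libraries, were Rarres1, Frzb and Tnni2. Rarres1, a retinoic acid responder gene, was at a distance of 0.131 with differences of -10.52 and -10.92. Frzb, which encodes a secreted WNT antagonist, was at 0.694 with differences of -11.35 and -11.54, and Tnni2, a troponin gene, was at 0.871. On the chromosome, the nearest tested gene was Scg5, which encodes a neuroendocrine secretory protein and lies 20.3 kb from Grem1 with 1 row between them. It went the other way, with 57 and 97 matched reads in SFZ, set against 7 and 4 in deep AC, and differences of 3.06 and 4.72 (limma adjusted p = 0.541). The low values of Grem1 in SFZ were thus not shared by its tested neighbour on that side, and Aven on the other side, 1120 kb away, stood at 1.37 and -0.56.

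Nog was lower in SFZ in both rats, but by different amounts. The whole reads that matched its values were 18 in SFZ rat 1 and 142 in SFZ rat 2, against 883 and 1406 in the deep AC libraries of those rats. In a simulation of whole reads, such matched reads were the true reads or those divided by a common whole number. A common division leaves ratios as they are but changes the width of their exact intervals. Reads that are not whole, as in Chrdl1, were not simulated. Both SFZ libraries lay below both deep AC libraries, as they did for 23.0% of all tested genes. The SFZ libraries were 7.72-fold apart and the deep AC libraries 1.47-fold. In rat 1 the deep AC level was 47.8 times that of SFZ (exact 95% interval 30.1 to 81.0), and in rat 2 it was 9.13 times (7.68 to 10.9). The intervals cover counting error only, and whether the rats differ was not tested. The mean difference was -4.38 ± 1.69 (n = 2 rats, SE 0.90), with a 95% interval from limma of -6.71 to -2.06, and 5.42% of tested genes had a lower one (limma adjusted p = 0.328). It passed with quantile normalization (limma adjusted p = 0.00644), as did 219 of all tested genes, in place of 3. Without SFZ replicate 1, in a fit with no rat term, the difference was -2.91. Over all alternatives its adjusted p ran up to 0.838.

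The tested genes nearest to Nog in their deposited values were Trim13 at a distance of 0.313, Trim14 at 0.409 and Wdr19 at 0.477. All 3 were low genes, with 0 reads in SFZ rat 1, 6 or 7 in SFZ rat 2 and between 41 and 66 in the deep AC libraries. On chromosome 10 the nearest tested gene was LOC497978, 154 kb before Nog, which stood at -4.39 and -0.72 (limma adjusted p = 0.508). Tmem100, the next tested gene after Nog, 755 kb away, stood at -3.25 and -1.40 (limma adjusted p = 0.558). Both neighbours thus had lower values in SFZ of each rat, as Nog had.

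Chrd, which encodes chordin (Entrez 117275, chromosome 11, 82401701 to 82410401, minus strand) had 233 and 97 matched reads in SFZ and 135 and 107 in deep AC, in rat 1 and rat 2. The zones overlapped, with SFZ rat 1 above the other 3 libraries. Within rat 1 SFZ was 1.77 times deep AC (exact 95% interval 1.43 to 2.21), and within rat 2 it was 0.983 times (0.739 to 1.31). The mean difference was 0.40 ± 0.60 (n = 2 rats, SE 0.98; limma adjusted p = 0.926), with a limma interval of -2.14 to 2.94, which holds differences of 4-fold in either direction. Without SFZ replicate 1, in a fit with no rat term, the difference was -0.25. Chrdl1, which encodes chordin-like 1 (chromosome X, 35143324 to 35246363, plus strand), had 1 read in SFZ rat 1, 15.3 (not a whole number) in deep AC rat 2 and none above the floor in the other libraries. Its mean of 4.29 scaled reads was under the minimum, and a difference between the zones was not detectable at this depth.

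The follistatin genes gave no difference that held in both rats as deposited. Fst (Entrez 24373, chromosome 2, 46542246 to 46550678, minus strand), which encodes the activin-binding protein follistatin, had 55 reads in SFZ and 9 in deep AC of rat 1, while rat 2 had 1 read in SFZ and none above the floor in deep AC. Both libraries of rat 1 were above both of rat 2, so the rats differed more than the zones. In rat 1 SFZ was 6.27 times deep AC (exact 95% interval 3.07 to 14.4), while the reads of rat 2, at most 1 in either zone, cannot show a difference. The mean difference was 1.32 ± 1.87 (n = 2 rats, SE 2.13; limma adjusted p = 0.871). Fits with a library left out have no rat term, so their differences also hold the gap between the rats. They gave -1.58 without SFZ replicate 1, 4.23 without SFZ replicate 2 and -0.26 without deep AC replicate 2. The within-rat differences were 2.65 in rat 1 and 0.0012 in rat 2, neither of them below 0. With quantile normalization the differences were 4.87 and 2.03, higher in SFZ in both rats (mean 3.45; limma adjusted p = 0.673). The SFZ libraries of Fst were 56.2-fold apart; at least 32-fold was seen for 11.1% of all tested genes in SFZ and for 2.24% in deep AC.

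Fstl1, which encodes a secreted glycoprotein with a follistatin-like domain made by many mesenchymal cells (Entrez 79210, chromosome 11, 64681827 to 64735673, minus strand), was the most even of the antagonist genes. Its deposited values were 0.16 and -0.16 in SFZ and 0.33 and -0.32 in deep AC, in rat 1 and rat 2. The zones overlapped, with both SFZ values between the deep AC values. No whole reads summing to at most 20000 matched them, so its level is not known. The differences were -0.17 and 0.16, a mean of -0.0025 ± 0.24 (n = 2 rats, SE 0.37; limma adjusted p = 0.999). Its limma interval, -0.96 to 0.95, was the narrowest of the 6 and lay within a 2-fold difference either way. The sign turned when a library was left out, in fits with no rat term, with 0.16 without SFZ replicate 2 and 0.32 without deep AC replicate 1.

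Bambi was higher in SFZ in both rats, by less than 2-fold in one of them. It had 73 and 199 matched reads in SFZ and 42 and 58 in deep AC, in rat 1 and rat 2. Both SFZ libraries lay above both deep AC libraries, as they did for 19.6% of all tested genes, and the SFZ libraries were 2.67-fold apart. Within rat 1 SFZ was 1.78 times deep AC (exact 95% interval 1.20 to 2.67), and within rat 2 it was 3.72 times (2.77 to 5.08). Both intervals lie above 1, for counting error only. The mean difference was 1.37 ± 0.75 (n = 2 rats, SE 1.25; limma adjusted p = 0.737). 9.30% of tested genes had a higher mean difference. With quantile normalization the differences were 2.20 and 2.27, over 4-fold in both rats (mean 2.24; limma adjusted p = 0.629). Without SFZ replicate 2, in a fit with no rat term, the difference of Bambi was 0.66. Its direction was the same under each alternative that kept it; a minimum of 100 scaled reads left it out.

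**Figure D2:**
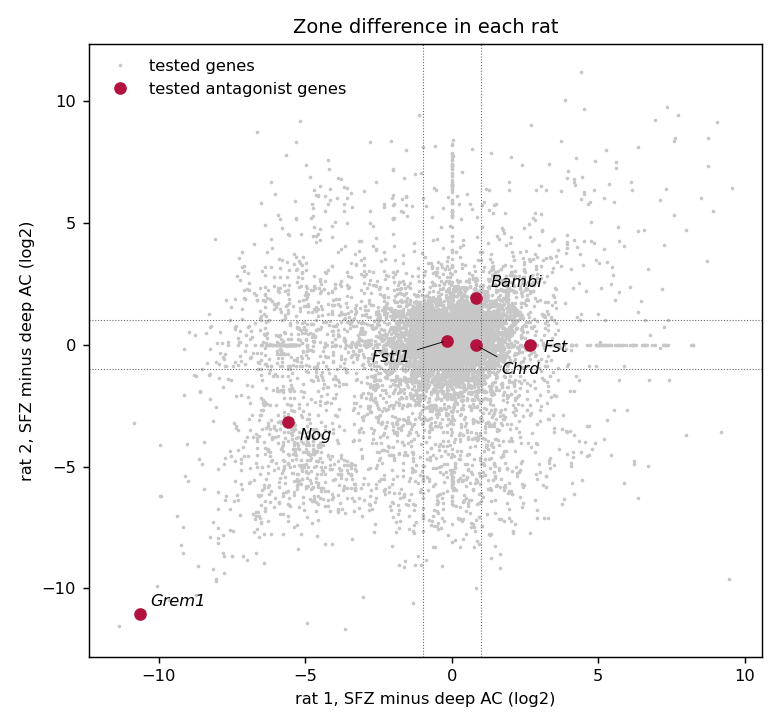
Zone difference (log2, SFZ value less deep AC value) in rat 1 (x axis) and rat 2 (y axis) for the 8724 tested genes (grey) and the 6 tested antagonist genes (red); dotted lines mark 2-fold. Grem1 lies at the lower left edge, at -10.66 and -11.03, Nog at -5.58 and -3.19, and the other 4 lie nearer the centre.

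The rest of the pathway was described from 6 lists of genes. 46 of their genes were tested, 0 passed limma's adjusted p of 0.05, 6 (13.0%) were at least 2-fold higher and 6 (13.0%) at least 2-fold lower in SFZ in both rats. The shares over all tested genes were 6.44% and 11.9%, and no test of the difference was made.

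Among the ligands, Bmp2, Bmp4 and Bmp7, which gremlin and noggin are known to bind, had higher values in SFZ. Bmp2 had 346 and 1289 matched reads in SFZ, set against 126 and 262 in deep AC, differences of 1.49 and 2.42 (limma adjusted p = 0.475). Bmp4 stood at 4.52 and 6.18 (limma adjusted p = 0.110), and its reads are not known. Bmp7 had 4 reads in SFZ rat 1, 204 in SFZ rat 2 and none above the floor deeper down, so the SFZ libraries were far apart. Bmp5 stood at 1.29 and 0.92, and Bmp6 had opposite signs in the rats (9.19 and -3.58). In all 3 of Bmp2, Bmp4 and Bmp7 both SFZ libraries lay above the deep AC library of the same rat by at least 2-fold, while none passed the test. Other ligands went the opposite way. Gdf10, a BMP3-related ligand, had 91 and 71 matched reads in SFZ, set against 1334 and 2542 in deep AC, differences of -3.84 and -5.04 (limma adjusted p = 0.185). Bmp8a stood at -5.13 and -3.63, Gdf1 at -3.38 and -3.97, and Bmp3 at -1.01 and -0.84. Of 10 tested ligands 3 were thus at least 2-fold higher in both rats and 3 at least 2-fold lower, with list medians of 1.3 in rat 1 and -1.53 in rat 2, beside -0.12 and 0.00 for all tested genes.

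Activin subunits gave little. Inhba, which encodes the subunit of activin A, had 65 and 776 matched reads in SFZ, set against 86 and 30 in deep AC, so SFZ of rat 2 stood alone. Inha, the inhibin alpha subunit, stood at -0.49 and -0.051. Both are the only tested members of a list of 5.

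Among 9 tested receptors and coreceptors 2 were at least 2-fold lower in SFZ in both rats and 0 at least 2-fold higher. Bmpr1a, a type I BMP receptor, had 81 and 86 matched reads in SFZ and 220 and 223 in deep AC, differences of -1.40 and -1.26 with close agreement of the rats (mean -1.33 ± 0.10; limma adjusted p = 0.683). Amhr2, the receptor of anti-Müllerian hormone, was not detected in SFZ (0 reads in each library) while deep AC held 308 and 255. Bmpr2, the type II BMP receptor, stood at 1.08 and -0.60.

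Of 8 tested members of the list of SMADs and their inhibitors 0 differed by 2-fold or more with the same sign in each rat. Smad1, which carries the BMP signal, stood at 1.15 and 0.27. Smad5, which also carries it, had opposite signs in the rats (2.57 and -2.69, from at most 29 reads in a library), as did Smad2, which carries the activin signal (0.71 and -1.25). Smad3, another activin SMAD, was under the minimum level, with no reads in SFZ and 4 and 20 in deep AC. Smad7, an inhibitory SMAD, had 541 and 607 matched reads in SFZ and 633 and 525 in deep AC.

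Known BMP target genes went both ways. Msx1, a homeobox gene, had 402 and 568 matched reads in SFZ and 35 and 50 in deep AC, differences of 3.56 and 3.62 that were nearly equal in the 2 rats (mean 3.59 ± 0.045, SE 0.94; limma adjusted p = 0.430). Dlx3, another homeobox gene, stood at 1.60 and 1.88. Atoh8, a basic helix-loop-helix gene, had 19 and 192 matched reads in SFZ, set against 464 and 573 in deep AC (limma adjusted p = 0.508). The ID genes, which encode inhibitors of basic helix-loop-helix factors, were closer in level: Id1 stood at -0.71 and -0.48, Id2 at -0.38 and -0.45, Id3 at 0.90 and 0.17, and Id4 at -0.063 and -2.01. Of 9 tested targets 2 were at least 2-fold higher in both rats and 1 at least 2-fold lower.

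The list of other antagonists and modulators had 1 of 9 tested genes at least 2-fold apart in both rats. This was Tll1, which encodes tolloid-like 1, a metalloprotease that cleaves chordin. It had 5631 and 4163 matched reads in SFZ, set against 192 and 412 in deep AC, so the zones did not overlap, with differences of 4.91 and 3.45 (mean 4.18 ± 1.03, SE 0.50; limma adjusted p = 0.167). Bmp1, the related protease, stood at -1.43 and 0.73. Crim1, a membrane protein with chordin-like repeats, stood at 1.12 and 0.19, Twsg1, a chordin cofactor, at 0.74 and 0.27, and Wfikkn1, an antagonist of myostatin, at 0.11 and 0.19. Sost, Sostdc1 and Kcp were among 7 genes of the list at 0 in every library.

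**Figure D3:**
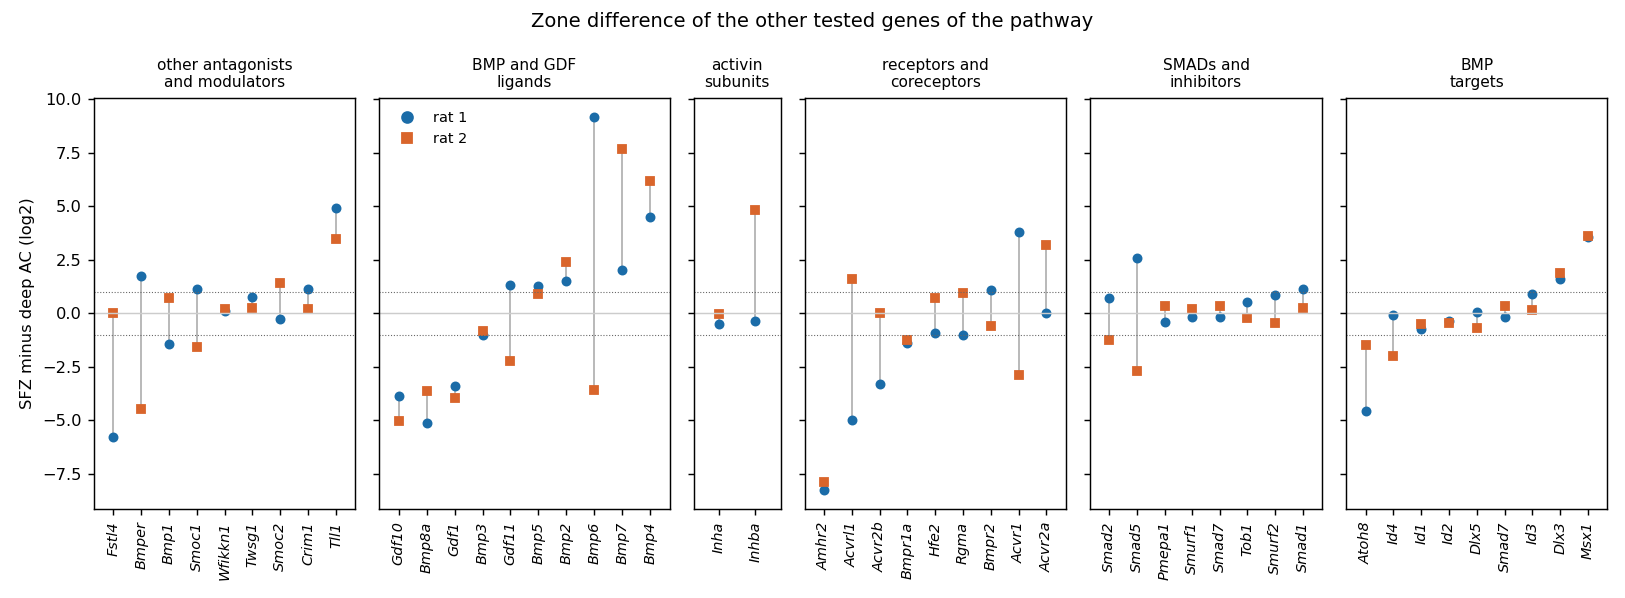
Zone difference (log2, SFZ value less deep AC value) in rat 1 (circles) and rat 2 (squares) for the other tested genes of the pathway, ordered by mean within each list; a grey line joins the 2 rats and dotted lines mark 2-fold. Bmp2, Bmp4, Bmp7, Tll1, Dlx3 and Msx1 lie above the upper dotted line in both rats, and Gdf10, Bmp8a, Gdf1, Amhr2, Bmpr1a and Atoh8 below the lower one. Smad7 is in 2 of the lists.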

How the data were processed

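The labels name 4 libraries of polyA RNA, 1 of each zone from each of 2 rats, made from microdissected tissue with a PicoPure extraction, RiboAmp HS PLUS linear amplification and a TruSeq kit. The authors deposited log2 values, scaled by TMM per the table's title, on build rn4 (the submitters' processing notes); which aligner and counter were used, and whether strand counted, is not stated there, so overlapping or near-identical genes may share reads. Every row's median is within 1e-05 of 0, and 20218 of 31007 rows are 0 throughout.

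Levels were recovered from the deposited values. 1 read was worth 1.02 and 1.00 scaled reads in the SFZ libraries of rats 1 and 2, and 0.996 and 0.923 in those of deep AC. This came from rows above the floor in that library alone, of which 93.98% to 96.75% were whole reads at a relative tolerance of 1e-05. In 3375 rows a library at the floor fixed the reads, and in 5004 whole reads matched at a tolerance of 1e-06; 5 of 7414 rows matched after a jitter of 0.01. On simulated data, drawn as whole reads only, 92.3% of matched rows were the true reads and 100.0% the true reads or a common division of them. The other rows took a level from their binary places (949) or as a lower bound (1461). In the main fit this sets only the minimum level and the variance trend. In alternatives that rescaled the libraries, quantile normalization among them, or added an amount before the log, these levels also entered the differences and p-values. Reads in rows with known reads summed to between 3026197 and 3391538 per library, and total depth is unknown. Amplified reads are not independent molecules, so intervals and floors cover counting error only.

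limma 3.58.1 in R 4.3.3 (lmFit, eBayes with trend) was fitted to the 8724 rows whose mean reached 10 scaled reads, two-sided, with zone and rat as terms and 1 residual degree of freedom. It was also run on simulated data with the same spread set for every gene. Spread differed between genes here, so that run cannot show how the fit performs on these data. The rat is a block because the titles tie both zones to an animal; across tested rows the difference between the SFZ libraries and that between the deep AC libraries had a correlation of 0.052. Nothing says that the samples stand for more than these 2 animals. The limma p-values rest on 1 residual of 4.88 total degrees of freedom, so most of each variance comes from the trend over all tested genes. An SE can thus differ from the spread of the 2 rats. Grem1 had an SD of 0.26 over the rats and an SE of 1.49. Ratios of reads have exact (Clopper-Pearson) 95% intervals.

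The genes and lists were chosen with earlier results of these data known. Named were all antagonist genes, from each of 6 pathway lists up to 4 tested genes at either end with 1 sign in both rats, and the 3 rows nearest in value to each antagonist at least 2-fold apart in both rats; other genes named from the lists, and chromosomal neighbours, were picked after their values were seen. 13 alternatives were run, 1 of them (rows with known reads only) added after the data had been seen. No groups of 4 or more libraries exist, so no search for outlying samples was made. Promoter windows are those of RefSeq on GRCr8.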

Additional observations from a re-analysis of the deposited data

How the results depend on the processing

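With 2 libraries per zone the fit has little information on the spread, and the counts of calls depend on the setting. 3 genes passed limma's threshold, Frzb, Tnni2 and Ibsp, all lower in SFZ and all with a level that was not fixed by reads. The number was 219 with quantile normalization (86 higher and 133 lower), 0 with an untrended prior, and between 0 and 407 when 1 library was left out, in fits with no rat term where the lone library is assumed to vary like the pair. Without the replicate block it was 2. Among rows with known reads only, which leave out those 3 genes, it was 4, with 2 higher and 2 lower in SFZ. The cause was not tested.

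Genes at least 2-fold higher in SFZ in both rats numbered 562, and 952 with quantile normalization; those at least 2-fold lower numbered 1042, and 379 among the fewer genes whose mean reached 100 scaled reads. With a library left out only 1 rat can be compared, and the counts ran from 1621 to 1946 higher and from 2202 to 2581 lower. For the antagonist genes the count lower was 2 in each of these settings, and the count higher went from 0 to 2 with quantile normalization (Bambi and Fst) and to 1 with each library left out. Fst had at most 1 read in either zone of rat 2.

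Grem1, Nog and Bambi had the same direction in each alternative that kept them (a minimum of 100 scaled reads left out Bambi and Fst, and known reads only left out Fstl1). The differences ran from -11.01 to -9.25 for Grem1, from -5.86 to -2.91 for Nog and from 0.66 to 2.24 for Bambi. Directions turned when a library was left out for Chrd (-0.25 without SFZ replicate 1), Fst (-1.58 without SFZ replicate 1 and -0.26 without deep AC replicate 2) and Fstl1 (0.16 without SFZ replicate 2 and 0.32 without deep AC replicate 1). Those fits have no rat term, so their differences also hold the gap between the rats and are not within-rat differences. With a library left out the differences ran from -0.25 to 1.05 for Chrd, from -1.58 to 4.23 for Fst and from -0.33 to 0.32 for Fstl1. Leaving out the rat term changed no call of an antagonist gene. Fold sizes of Grem1 and Fst are limited by reads near 0 in SFZ or in rat 2.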

Other observations

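Several genes of the pathway differed more between the 2 SFZ libraries than between the zones. Of the 46 tested pathway genes 6 had SFZ libraries at least 32-fold apart, 13.0%, beside 11.1% of all tested genes, so the share is near the background. Bmp6, a BMP ligand gene, had 571 reads in SFZ of rat 1 with none above the floor beneath it, and 0 in SFZ of rat 2 with 13 beneath it. Bmper, which encodes a secreted BMP modulator, had 184 and 0 reads in SFZ, set against 56 and 24 in deep AC. Acvrl1, a type I receptor gene of endothelial cells, went the other way, with 4 and 470 matched reads in SFZ, set against 131 and 168 in deep AC. Acvr1, a type I receptor gene, had 148 and 1 in SFZ and 11 and 8 in deep AC, and Acvr2a, a type II receptor gene, had 195 in SFZ rat 2, 23 in deep AC of that rat and none above the floor in rat 1. Beside these, C1qa, C1qb and C1qc, complement genes of macrophages, had 119, 91 and 36 reads in SFZ rat 1 and none above the floor elsewhere; Ckm, a muscle gene, had 96 in SFZ rat 2 alone. The part of other cells in these values was not tested.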
